A study of Mus musculus with 12 samples.

Results

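The genes described here are the cornified envelope genes of the epidermal differentiation complex, the stretch of mouse chromosome 3 that holds most structural genes of the skin barrier. They were taken as every gene of the array results whose symbol starts with Lce or Sprr, together with Lor, Flg, Flg2, Ivl, Hrnr, Rptn, Crnn, Crct1, Tchh, Tchhl1 and Smcp. This gave 47 genes of the 38686 that the array results name with 1 symbol, each measured by 1 transcript cluster, which is the probe set for the transcripts of 1 locus. The clusters lay at chr3:92080271-93471980 (mm10). They comprised 14 Lce1 genes, 6 Lce3 genes, Lce6a, 15 Sprr genes of which 11 were Sprr2 genes, 7 fused S100 genes (Flg, Flg2, Hrnr, Rptn, Crnn, Tchh and Tchhl1), loricrin (Lor), involucrin (Ivl), Crct1 and Smcp. The platform annotation lists other genes as well for the clusters of Sprr2a2, Sprr2a3 and Lce1g, so signal of near-identical copies could not be separated there.

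RNA was taken from sorted primary keratinocytes, the epithelial cells of the epidermis, of FVB/N mice on postnatal day 4. The 12 arrays formed 4 groups of 3: bitransgenic basal, wild-type basal, bitransgenic suprabasal and wild-type suprabasal cells. All mice shared strain, age and tissue. The labels give the genotype only as BT or wild type and do not describe the transgenes, their promoters or the sorting markers; the series title names progerin, the truncated lamin A of Hutchinson-Gilford progeria. Each array carries a code. X667_05 and X721_05 (bitransgenic) and X667_06, X682_11 and X721_08 (wild type) occur in both layers, while X722_07 occurs only in bitransgenic basal and X682_05 only in bitransgenic suprabasal cells. The labels do not say that codes are separate animals, so p-values measure the spread between these samples, which may be technical.

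Keratinocytes of the basal layer divide, and cells that move up stop dividing and assemble the cornified envelope, a protein shell beneath the plasma membrane. Involucrin forms its first scaffold, loricrin is its main filler, and small proline-rich (Sprr) and late cornified envelope (Lce) proteins are cross-linked to them by transglutaminases. Filaggrin (Flg) and its relatives, which join an S100 domain to long repeats, bundle keratin filaments in the same cells.

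Values are log2 signals, and a level can be compared between arrays for 1 gene but not between genes. A signal was called above background where it exceeded the 95th percentile of the 5222 intronic control sets of its own array, a mark that lay between 8.04 and 8.81. The medians of all 65956 clusters were alike between arrays, at 5.28 to 5.46. Krt1 and Krt10, keratins that mark suprabasal cells, lay at 12.28 to 13.37 on the 6 basal arrays and at 12.25 to 13.50 on the 6 suprabasal arrays, so these 2 overlapped between the sorted layers. Among 10 basal markers, Krt5, Krt14, Itgb4 and Lamb3 separated the layers, whereas Krt15, Itga6, Itgb1, Col17a1, Trp63 and Dst overlapped. Krt5 was at 13.42 to 13.54 on the 6 basal and 12.20 to 13.38 on the 6 suprabasal arrays. Itgb4, an integrin subunit of hemidesmosomes, was at 9.89 to 10.23 and 7.90 to 9.71. Itga6, its partner subunit, was at 9.90 to 10.33 and 8.18 to 9.93. Of 10 basal markers 9 had higher means in basal cells of each genotype (median log2 difference 0.62 in bitransgenic and 0.525 in wild-type cells). Of 8 suprabasal markers 7 were lower in bitransgenic and 8 in wild-type basal cells, and none of either list was called (limma). Xist was at 10.69 to 11.08 on X667_05 and X722_07 basal and X667_05 and X682_05 suprabasal, all bitransgenic. On the other arrays it was at 4.09 to 4.28. Ddx3y, a gene of the Y chromosome, ran the other way. It was at 4.56 to 5.04 on the arrays with high Xist and at 8 to 8.6 on the others. All wild-type arrays thus had the male pattern, and X721_05 was the only bitransgenic code with it. Genotype and sex were therefore largely confounded in each layer. With 3 arrays a group, the number of arrays sets the precision of each comparison.

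Sequences upstream of 8 genes are shown because the results below turn on these genes and their families. They are the 250 bases before the RefSeq start of each gene (GRCm38.p6), read 5′ to 3′ on the gene's strand. Capitals mark matches to the AP-1 motif TGANTCA, the TATA box TATAAA, the octamer ATTTGCAT and the TATA variant AATAAAA, searched on both strands. The variant was added to the search after the sequences were read. Matches count at any position of a window. Counted from the start, AATAAAA lay at -217 in Sprr4, far from its place at -30 in Lce1b. The first 4 belong to the called genes Sprr1a and Sprr4 and to involucrin and loricrin, the scaffold and filler of the envelope: Sprr1a (chr3:92485882-92486131, minus strand), Sprr4 (chr3:92500494-92500743, minus strand), Ivl (chr3:92573736-92573985, minus strand) and Lor (chr3:92083143-92083392, minus strand).
Sprr1a: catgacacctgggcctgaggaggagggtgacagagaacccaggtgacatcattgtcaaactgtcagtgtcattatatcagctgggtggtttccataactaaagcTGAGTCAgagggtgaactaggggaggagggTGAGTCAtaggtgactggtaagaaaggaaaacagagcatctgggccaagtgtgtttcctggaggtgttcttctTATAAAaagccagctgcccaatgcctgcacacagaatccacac
Sprr4: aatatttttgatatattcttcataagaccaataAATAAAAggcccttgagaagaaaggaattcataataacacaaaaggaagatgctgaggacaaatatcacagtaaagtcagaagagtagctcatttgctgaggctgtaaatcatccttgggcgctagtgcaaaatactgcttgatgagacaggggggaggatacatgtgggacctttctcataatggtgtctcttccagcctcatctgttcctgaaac
Ivl: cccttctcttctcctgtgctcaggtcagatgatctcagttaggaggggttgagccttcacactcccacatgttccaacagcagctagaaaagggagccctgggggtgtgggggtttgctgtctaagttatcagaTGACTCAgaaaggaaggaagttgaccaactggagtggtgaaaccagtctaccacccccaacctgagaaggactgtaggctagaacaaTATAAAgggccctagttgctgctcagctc
Lor: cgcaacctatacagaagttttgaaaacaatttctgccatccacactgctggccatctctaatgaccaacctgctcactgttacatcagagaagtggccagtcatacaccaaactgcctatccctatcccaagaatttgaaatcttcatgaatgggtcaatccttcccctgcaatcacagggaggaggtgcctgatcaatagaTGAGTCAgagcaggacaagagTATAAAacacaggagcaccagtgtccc
Sprr2b (chr3:92316455-92316704, plus strand) and Sprr2h (chr3:92385435-92385684, plus strand) stand for the Sprr2 genes, most of which differed more between codes than between the layers of a code.
Sprr2b: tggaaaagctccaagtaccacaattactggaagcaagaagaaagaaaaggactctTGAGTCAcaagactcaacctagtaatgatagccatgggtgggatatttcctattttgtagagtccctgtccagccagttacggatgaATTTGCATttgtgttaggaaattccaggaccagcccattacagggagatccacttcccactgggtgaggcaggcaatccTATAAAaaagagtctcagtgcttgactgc
Sprr2h: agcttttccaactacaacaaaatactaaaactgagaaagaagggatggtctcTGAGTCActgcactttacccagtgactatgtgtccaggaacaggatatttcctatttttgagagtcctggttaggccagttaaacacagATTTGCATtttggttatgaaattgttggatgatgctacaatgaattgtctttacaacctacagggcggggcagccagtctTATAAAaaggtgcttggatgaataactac
Lce1b (chr3:92656927-92657176, minus strand) and Lce1a1 (chr3:92648308-92648557, minus strand) stand for the Lce1 genes, whose values were highest on the same arrays.
Lce1b: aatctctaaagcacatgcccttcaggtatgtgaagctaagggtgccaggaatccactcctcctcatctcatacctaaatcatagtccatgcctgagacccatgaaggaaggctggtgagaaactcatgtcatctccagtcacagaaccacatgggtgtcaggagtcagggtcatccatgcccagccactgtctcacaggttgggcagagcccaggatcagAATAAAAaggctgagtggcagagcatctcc
Lce1a1: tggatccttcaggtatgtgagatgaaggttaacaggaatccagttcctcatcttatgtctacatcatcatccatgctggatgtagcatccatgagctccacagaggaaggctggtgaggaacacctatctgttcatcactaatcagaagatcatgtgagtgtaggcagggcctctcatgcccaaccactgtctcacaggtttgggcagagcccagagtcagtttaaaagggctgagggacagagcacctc

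RefSeq windows were matched for 43 of the 47 genes; Sprr2j-ps, Sprr2g, Lce1f and Crct1 had none. AP-1 is the site of Fos and Jun proteins. Its motif was in 9 of 13 Sprr windows, 5 of 7 fused S100 windows and those of Ivl and Lor, but in 0 of 13 Lce1 windows and 0 of 6 Lce3 windows. It was in 37.2% of the windows of these genes and in 6.75% of all 32851 RefSeq windows of this length. The Sprr1a window held 2 matches and that of Ivl 1, at -116 counted from the start. The octamer, the site of POU-domain proteins, was in 7 of 9 Sprr2 windows and in no other window of these genes, against 1.6% of all windows. In Sprr2b and Sprr2h it lay at -108 and -109, with TATAAA at -29 in both. TATAAA was in 46.5% of these genes' windows and 12.4% of all. AATAAAA was in 9 of 13 Lce1 windows and 0 of 9 Sprr2 windows, against 7.76% of all windows. Pairwise alignment gave a median identity of 67.4% between Sprr2 windows (12.8% to 89.6%) and 68.2% between Lce1 windows (37.2% to 85.6%). Between an Sprr2 and an Lce1 window it was 48.4% (11.2% to 63.2%). Gaps at the ends were free, so low values can stand for a short overlap. No level for windows outside these genes was computed. The Sprr2a2 and Sprr2a3 windows held none of the octamer, AP-1 and TATAAA. Of 3 further motifs, CAGGAAG (Ets) was in 11.6% of these windows against 10.8% of all, TTNCNNAA (C/EBP) in 65.1% against 36.8%, and CCACACCC (Klf) in 2.33% against 3.2%. These matches are a description of the windows only.

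Most of the genes stayed at or below the background mark, as did most clusters on each array. Of the 47, 17 exceeded the background mark on at least 1 array and 30 on none. On single arrays 2.13% to 34% of the genes exceeded it, against 7.14% to 12.28% of all clusters. The share of all clusters above it on at least 1 of the 12 arrays was not computed. The 17 were Lor, Ivl, Flg, Flg2, Hrnr, Sprr1a, Sprr1b, 5 Sprr2 genes (Sprr2a3, Sprr2b, Sprr2d, Sprr2f and Sprr2h) and 5 Lce1 genes (Lce1a1, Lce1a2, Lce1b, Lce1d and Lce1m). Only Flg, Ivl, Sprr1a, Sprr1b and Sprr2a3 exceeded it on all 3 arrays of at least 1 group. All 6 Lce3 genes, 9 Lce1 and 6 Sprr2 genes, Lce6a, Crct1, Smcp, Sprr4, Sprr3, Rptn, Crnn, Tchh and Tchhl1 stayed at or below it throughout. The values of the 30 genes lay between 3.52 and 8.02.

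More of the genes were above background in suprabasal than in basal cells, and the count rested on few arrays. Counting a gene where at least 1 of the 3 arrays exceeded the mark, 7 of 47 genes (14.9%) were above it in bitransgenic basal cells and 6 (12.8%) in wild-type basal cells. In bitransgenic suprabasal cells 17 genes (36.2%) were above it, and in wild-type suprabasal cells 9 (19.1%). Of all clusters 12.4%, 11.6%, 12.7% and 11.1% were above it in the same order of groups, and of the clusters with 1 symbol 18.9%, 17.6%, 19.4% and 16.7%. The share of the envelope genes lay below that of clusters with 1 symbol in both basal groups, above it in bitransgenic suprabasal cells and near it in wild-type suprabasal cells; these shares were not tested. In basal cells the 7 became 3 without X667_05, and the 6 became 1 without X682_11. The 17 genes of bitransgenic suprabasal cells became 11 without X682_05, and the 9 of wild-type suprabasal cells became 4 without X682_11. By array, 7, 2 and 2 genes exceeded the mark on bitransgenic basal X667_05, X721_05 and X722_07, and 1, 6 and 1 on wild-type basal X667_06, X682_11 and X721_08. On bitransgenic suprabasal X667_05, X682_05 and X721_05 these were 11, 16 and 4, and on wild-type suprabasal X667_06, X682_11 and X721_08 they were 3, 8 and 4. Among suprabasal arrays the marks were lowest on X667_05 (8.04) and X682_05 (8.12), the arrays with the most genes above them, and highest on X721_05 (8.81).

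**Figure D1:**
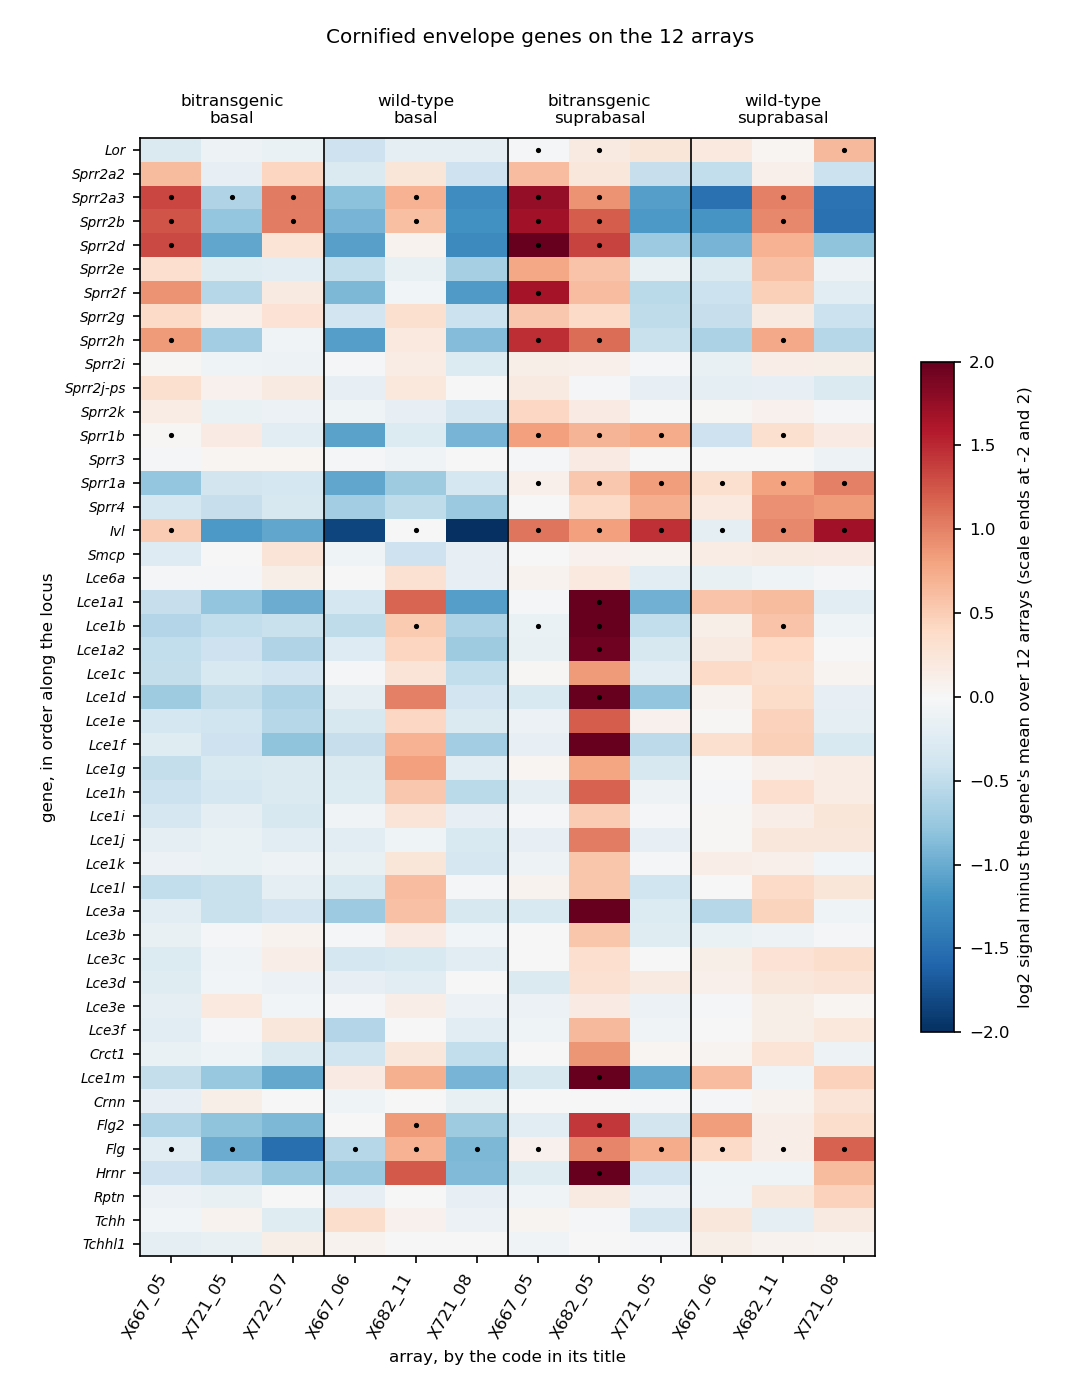
Log2 signal of the 47 genes on the 12 arrays, drawn as the difference from each gene's mean over all arrays with colours that end at -2 and 2. Columns are arrays by group and rows are genes in order along the locus. A dot marks a signal above the background mark of its array. The Sprr2 rows are high on X667_05 and X682_11 in both layers, and the Lce1 rows are highest on X682_11 basal and X682_05 suprabasal.

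Between layers, the envelope genes had lower mean signals in basal than in suprabasal cells for most members in both genotypes. In bitransgenic cells 41 of the 47 were lower in basal cells and 5 higher, with a median difference of -0.43 on the log2 scale against 0.02 over all clusters. In wild-type cells 36 were lower and 10 higher, with a median of -0.30 against -0.05 over all clusters. Of all clusters 42.3% were lower in bitransgenic and 60.6% in wild-type basal cells. Each genotype left 1 gene with equal means. Single arrays moved these medians: the bitransgenic one was -0.142 without X682_05 suprabasal (34 lower, 11 higher) and -0.687 without X721_05 suprabasal (46 lower, 1 higher). The wild-type one was -0.05 without X721_08 basal (31 lower, 16 higher), -0.192 without X667_06 basal, -0.185 without X682_11 suprabasal and -0.453 without X682_11 basal (42 lower, 5 higher). With each array centred on its own median the counts were 42 lower and 5 higher in bitransgenic and 32 lower and 15 higher in wild-type cells. Only Sprr1a and Sprr4 passed limma's moderated test, both lower in basal cells of wild-type mice. The test used adjusted p under 0.05 after Benjamini-Hochberg adjustment over all clusters. That is 2 of 47, against 1.45% of all 65956 clusters called in that comparison (268 higher and 689 lower in basal cells). After centring the arrays the split over all clusters was 227 higher and 115 lower, and Sprr1a and Sprr4 stayed called. A fit that took the code as random block called 5 of the genes, adding Lor, Sprr1b and Lce3c (adjusted p = 0.0389, 0.0457 and 0.0274 in limma), against 885 clusters higher and 2715 lower in all. In bitransgenic cells 0 of 47 genes were called, as were 0% of all clusters. At unadjusted p under 0.05, 9 genes were lower and 0 higher in each genotype, against 7.45% of all clusters in bitransgenic and 22.8% in wild-type cells.

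Sprr1a encodes a small proline-rich precursor that is cross-linked into the envelope. Its log2 signal was 7.54, 7.94 and 7.96 in bitransgenic basal cells, against 8.41, 8.84 and 9.14 in bitransgenic suprabasal cells. In wild-type cells it was 7.26, 7.59 and 7.95 in basal, against 8.62, 9.11 and 9.32 in suprabasal cells. All 6 basal arrays thus lay below all 6 suprabasal arrays. The log2 difference was -0.98 in bitransgenic cells (SE 0.24, adjusted p = 0.605 in limma) and -1.42 in wild type (SE 0.24, adjusted p = 0.0377). Because no basal array exceeded the background mark, the fold is a bound: Sprr1a was at least 1.46-fold lower in wild-type basal than suprabasal cells. The bound sets each basal array at its background mark, or at the gene's own signal where that is higher.

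Sprr4 encodes a relative whose gene lies between Sprr1a and Ivl. It measured 6.41, 6.30 and 6.44 in bitransgenic basal cells, against 6.75, 7.14 and 7.48 in bitransgenic suprabasal cells. In wild-type cells it measured 6.07, 6.25 and 6.02 in basal, against 6.95, 7.68 and 7.61 in suprabasal cells. Again no basal array reached any suprabasal array. Its difference was -0.74 in bitransgenic cells (adjusted p = 0.605 in limma) and -1.30 in wild type (SE 0.20, adjusted p = 0.0360). Every value was below the background mark, so no fold is given. Leaving out X721_05 or X722_07 from bitransgenic basal cells, X682_05 from bitransgenic suprabasal cells, or X682_11 or X721_08 from either wild-type layer left neither Sprr1a nor Sprr4 called. Adjusted p then reached up to 0.126 for Sprr1a and 0.12 for Sprr4 (limma).

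Involucrin showed the largest mean difference of the 47 genes between layers in both genotypes, and a wide spread within basal groups. Ivl was at 9.76, 8.11 and 8.21 in bitransgenic basal cells, against 10.33, 10.07 and 10.72 in bitransgenic suprabasal cells, with no overlap. In wild-type cells it was at 7.42, 9.25 and 6.95 in basal, against 9.07, 10.21 and 10.94 in suprabasal cells. The wild-type groups overlapped through X682_11 basal and X667_06 suprabasal. The log2 differences were -1.68 in bitransgenic cells (3.20-fold lower in basal cells, adjusted p = 0.618 in limma) and -2.20 in wild type (SE 0.65, 4.60-fold lower, adjusted p = 0.0932). The wild-type difference was -2.89 without X682_11 basal and -1.74 without X721_08 basal. In each basal group 1 of 3 arrays exceeded the background mark. Within each of the 5 codes with both layers the basal value was lower, with differences of -3.99 to -0.57.

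Loricrin, the filler of the envelope, showed small differences between layers, with values near the background mark. Lor measured 7.87, 8.06 and 8.02 in bitransgenic basal cells, against 8.13, 8.34 and 8.40 in bitransgenic suprabasal cells. In wild-type cells it measured 7.74, 7.97 and 7.96 in basal, against 8.35, 8.20 and 8.81 in suprabasal cells. Neither pair of groups overlapped. The differences were -0.31 in bitransgenic (adjusted p = 0.68 in limma) and -0.56 in wild-type cells (adjusted p = 0.0696), with all basal values below the background mark. Suprabasal values exceeded it on 2 bitransgenic arrays and 1 wild-type array only. Within each of the 5 codes with both layers the basal value was the lower one.

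Sprr1b, a close relative of Sprr1a, was lower in basal cells of all 5 codes. The values were 8.13, 8.27 and 7.90 in bitransgenic basal cells, against 8.92, 8.78 and 8.85 in bitransgenic suprabasal cells (-0.75, 1.68-fold lower, adjusted p = 0.605 in limma). It had 7.03, 7.83 and 7.17 in wild-type basal cells, against 7.69, 8.43 and 8.27 in wild-type suprabasal cells (-0.79, adjusted p = 0.0842 in limma). The bitransgenic layers did not overlap and the wild-type layers did.

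Filaggrin, whose long precursor is cut into keratin-bundling units, separated the layers in bitransgenic but not in wild-type arrays. Flg was at 9.45, 8.66 and 8.15 in bitransgenic basal cells, against 9.74, 10.64 and 10.40 in bitransgenic suprabasal cells (-1.51, 2.84-fold lower, adjusted p = 0.605 in limma). In wild-type cells it was at 9.08, 10.35 and 8.76 in basal, against 10.04, 9.79 and 10.83 in suprabasal cells (-0.82, adjusted p = 0.308). The interaction of layer and genotype was -0.68 for Flg (adjusted p = 0.736), so the difference between genotypes was not called. Flg2, a filaggrin relative, measured 6.96, 6.77 and 6.68 in bitransgenic basal and 7.35, 8.99 and 7.21 in bitransgenic suprabasal cells. Its wild-type values were 7.57, 8.43 and 6.86 in basal and 8.40, 7.71 and 7.93 in suprabasal cells. Hornerin (Hrnr), a further relative, stood out on 2 arrays: it was at 8.80 on X682_05 suprabasal and 7.78 on X682_11 basal, and between 5.66 and 7.18 on the other 10 arrays. No layer difference of Flg, Flg2 or Hrnr was called.

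**Figure D2:**
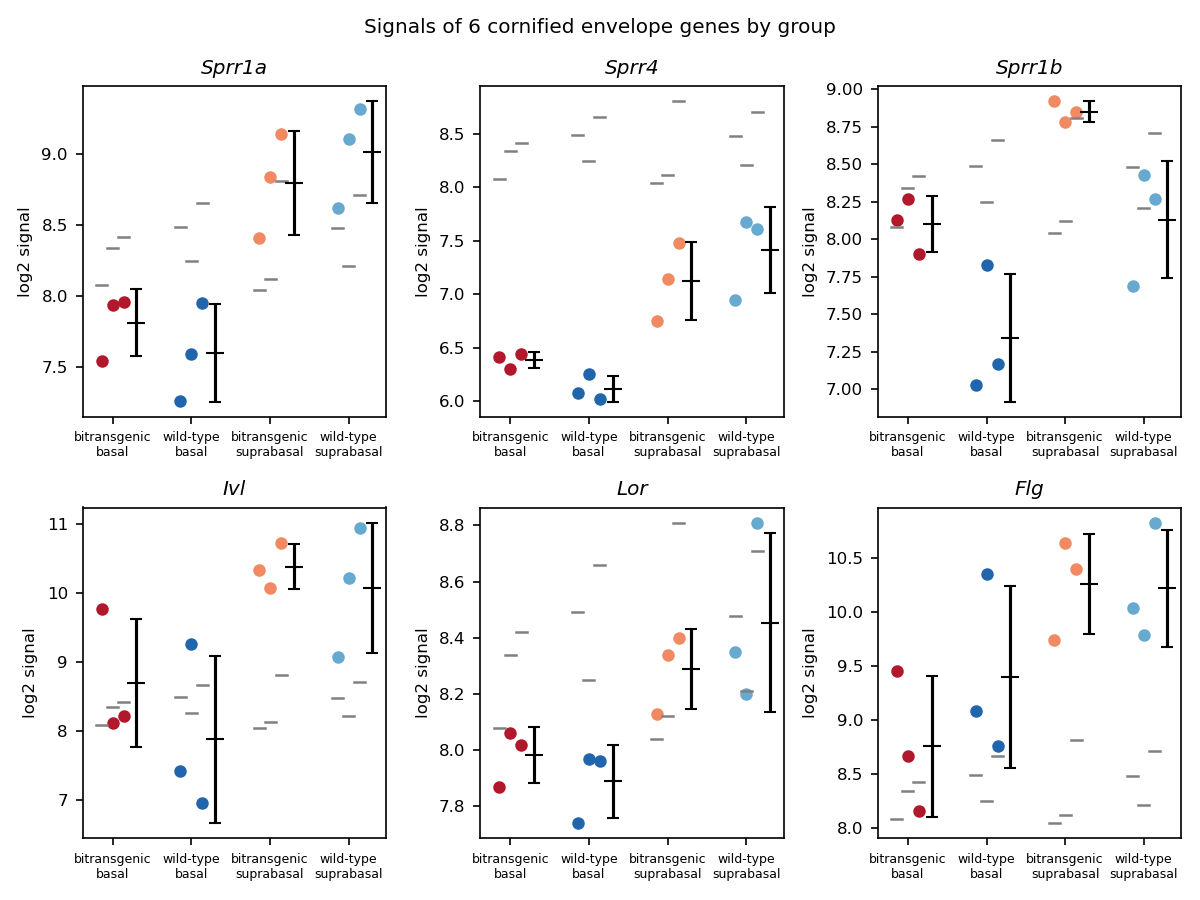
Log2 signal of Sprr1a, Sprr4, Sprr1b, Ivl, Lor and Flg on each array (points) with the mean and SD of each group of 3 (bars); the grey tick beside a point is the background mark of that array. For Sprr1a and Sprr4 all basal points lie below all suprabasal points, while Ivl and Flg spread widely within the basal groups.

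Comparing the layers within a code sets aside what a code's 2 arrays share. Of the 47 genes, 17 were lower in basal cells in all 5 codes, against 10.8% of all clusters, and 2 (Sprr2a2 and Sprr2j-ps) were higher in all 5, against 8.37%. The 17 included Ivl, Lor, Crct1, Smcp, 8 Sprr genes, 2 Lce1 genes, 1 Lce3 gene and the fused S100 genes Rptn and Tchhl1. The difference within a code was -1.52 to -0.87 for Sprr1a, -1.59 to -0.34 for Sprr4, -1.1 to -0.58 for Sprr1b and -0.85 to -0.23 for Lor. For Flg the difference ran from -2.07 to 0.56. Groups did not overlap for 14 genes lower and 0 higher in bitransgenic basal cells, against 4.27% and 8.08% of all clusters. In wild type 9 genes lay lower and 1 higher in basal cells without overlap, against 20.2% and 7.38% of all clusters. The 14 became 26 without X721_05 suprabasal, against 7.53% of all clusters. The 9 became 33 without X682_11 basal, against 25% of all clusters, and 14 without X667_06 suprabasal, against 26.7%. The 1 higher gene became 4 without X682_11 suprabasal, against 10.3%, and 2 without X721_08 basal or suprabasal, against 10.8% and 10.6%.

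Melanocyte markers moved with the layers as well. All 8 of the markers Dct, Tyrp1, Tyr, Pmel, Mlana, Sox10, Mitf and Kit had a lower mean in basal cells of both genotypes, and the first 5 passed the test in wild type (smallest adjusted p = 0.0348 in limma). Their unlogged signals were summed and the log2 of the sum was taken. It was 9.30 to 10.30 in bitransgenic basal and 11.05 to 14.91 in bitransgenic suprabasal cells. In wild-type cells it was 9.12 to 9.73 in basal and 13.17 to 14.68 in suprabasal cells. In wild-type basal cells 0 of the 8 exceeded the background mark on any array. The lowest suprabasal sum was that of X667_05, which also had the lowest suprabasal values of Sprr1a and Sprr4. The part of the melanocyte signal in the layer differences was not tested.

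**Figure D3:**
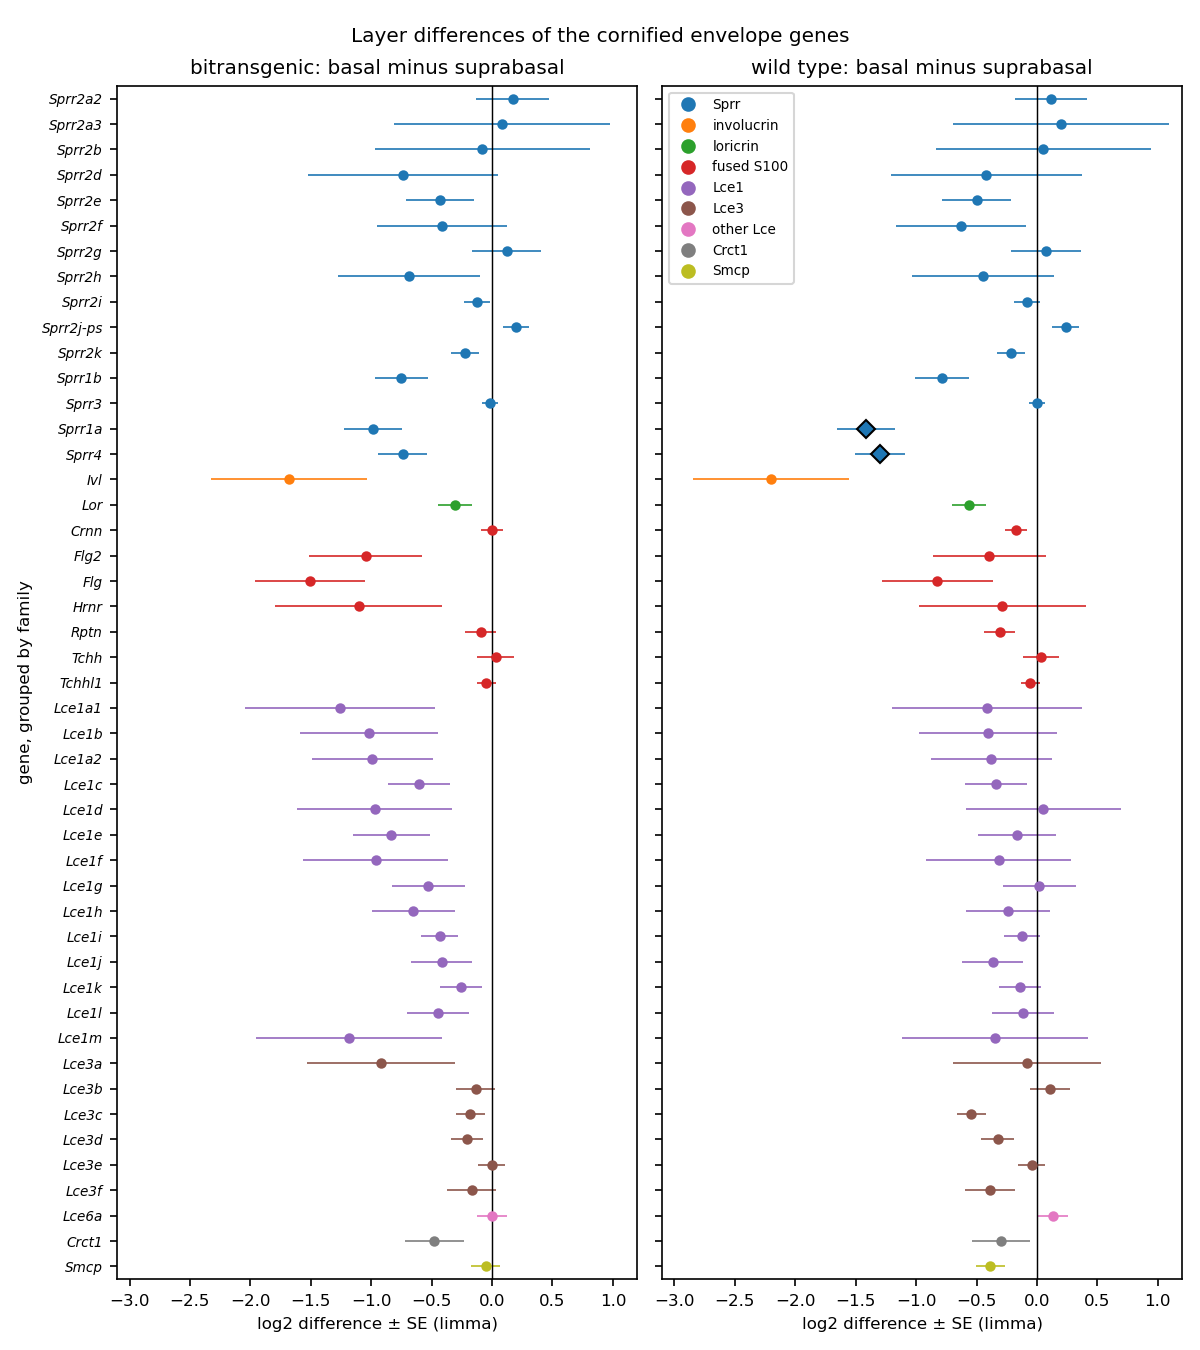
Log2 difference between basal and suprabasal cells, with its standard error from limma, for each of the 47 genes; bitransgenic cells are in the left panel and wild-type cells in the right one, and diamonds mark genes called at adjusted p under 0.05. Ivl lies furthest to the negative side in both panels, at -1.68 and -2.20, and only Sprr1a and Sprr4 in wild type are diamonds.

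Other genes of envelope assembly were described by lists. Of 19 partners (transglutaminases, desmosomal proteins, keratins and other envelope proteins), 1 passed between wild-type layers, against the 1.45% of all clusters given above. This was Tgm5, a transglutaminase that cross-links envelope proteins, with 7.08 ± 0.22 in wild-type basal and 8.01 ± 0.25 in wild-type suprabasal cells (SD, n = 3 each; -0.94, adjusted p = 0.0338 in limma), all below the background mark. The 4 partners of highest signal, Krt10, Krt1, Dsp and Pkp1, differed by -0.17, -0.06, -0.06 and 0.09 between wild-type layers. Of 17 regulators of epidermal differentiation 0 passed, with the smallest adjusted p at 0.051. Those of highest signal were Klf4, Cebpa, Fosl2 and Zfp750, with differences of -0.06, -0.20, 0.30 and -0.57. Of 13 S100 genes from the same chromosomal complex 0 passed, and S100a11, S100a16, S100a14 and S100a9 differed by 0.18, -0.06, 0.18 and -0.48. In the bitransgenic layers and in both comparisons of genotype, 0 genes of these lists passed.

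The Sprr2 genes, which encode proline-rich envelope precursors and are known for induction in stressed epithelia, varied more between codes than between layers. Sprr2a3 was at 10.63 on bitransgenic basal X667_05, 8.69 on X721_05 and 10.33 on X722_07, against 8.46, 9.99 and 8.04 on wild-type basal X667_06, X682_11 and X721_08. In suprabasal cells it was at 11.04, 10.18 and 8.19 on bitransgenic X667_05, X682_05 and X721_05, against 7.80, 10.29 and 7.81 on wild-type X667_06, X682_11 and X721_08. In each layer 3 arrays lay at 9.99 or above and the other 3 at 8.69 or below, and both genotypes were on each side.

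Sprr2b was high on the same arrays. It had 9.53, 7.50 and 9.30 in bitransgenic basal and 7.35, 8.87 and 7.06 in wild-type basal cells, and 9.96, 9.49 and 7.12 in bitransgenic suprabasal and 7.10, 9.23 and 6.79 in wild-type suprabasal cells. Within a code its layers differed by -0.43 to 0.38, whereas the codes spanned 2.47 in basal and 3.17 in suprabasal cells. Sprr2d and Sprr2h, named after their values were seen, were lower in basal cells within every code, with differences of -0.81 to -0.17 and -0.62 to -0.25. Their codes spanned 2.6 and 1.96 in basal and 3.06 and 2.11 in suprabasal cells.

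For 10 of the 11 Sprr2 genes (90.9%) the range between codes exceeded the largest layer difference within a code in both layers, as it did for 51.1% of the 47 genes and 26.1% of all clusters. X667_05 was the highest of the 6 basal arrays for 10 of 11 Sprr2 genes and the highest of the 6 suprabasal arrays for 10 of 11. The same array was highest for 10.5% of all clusters in basal and 17.7% in suprabasal cells.

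S100a8 and S100a9 lie in the same complex and encode the calprotectin subunits, which neutrophils and stressed keratinocytes make. S100a8, named after its values were seen, was at 10.74, 5.40 and 10.23 in bitransgenic basal and 4.01, 9.82 and 3.99 in wild-type basal cells. It was at 11.02, 10.69 and 6.39 in bitransgenic suprabasal and 4.48, 9.79 and 4.29 in wild-type suprabasal cells. S100a9 was at 10.42, 7.81 and 10.34 in bitransgenic basal and 6.23, 9.81 and 6.21 in wild-type basal cells, and at 10.71, 10.64 and 8.02 in bitransgenic suprabasal and 6.65, 10.08 and 6.95 in wild-type suprabasal cells. The codes X667_05 and X682_11, high for Sprr2a3 and Sprr2b in both layers, were high for both S100 genes too. The 6 immune cell markers (Ptprc, Cd3e, Cd207, Itgax, Cd74 and Lyz2) were at or below the background mark on all arrays. The log2 of their summed unlogged signals was 8.17 to 8.22 in bitransgenic basal and 8.16 to 8.37 in wild-type basal cells. In suprabasal cells it was 8.08 to 8.30 in bitransgenic and 8.25 to 8.48 in wild type. The part of neutrophils in the S100 values was not tested. The background marks were 8.08, 8.34 and 8.42 on the bitransgenic basal arrays, 8.49, 8.25 and 8.66 on the wild-type basal arrays, 8.04, 8.12 and 8.81 on the bitransgenic suprabasal arrays and 8.48, 8.21 and 8.71 on the wild-type suprabasal arrays. Xist and the marks followed the Sprr2 values only in part. Xist was high on X667_05, X722_07 and X682_05, which were high for Sprr2a3. On X682_11, high for Sprr2a3 as well, Xist was at 4.14 in basal and 4.18 in suprabasal cells. The mark was 8.42 on X722_07 basal, high for Sprr2a3, and 8.34 on X721_05 basal, low for it. Among the genotype differences, Sprr2a3 is given with a term for Xist and with a term for the intronic control level.

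**Figure D4:**
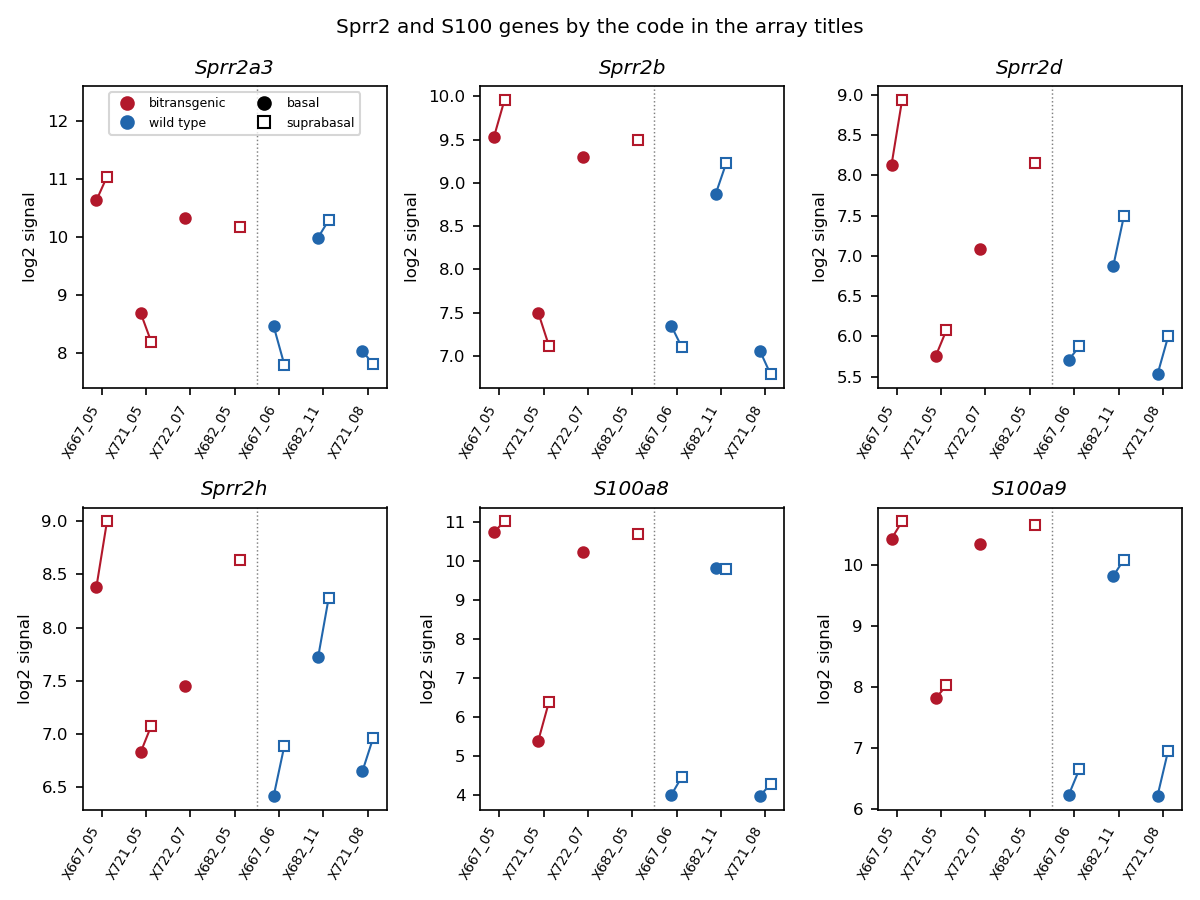
Log2 signal of Sprr2a3, Sprr2b, Sprr2d, Sprr2h, S100a8 and S100a9 by sample code, bitransgenic codes on the left and wild-type codes on the right; circles are basal, squares are suprabasal and lines join the layers of 1 code. The lines are short beside the differences between codes, with Sprr2b codes spanning 2.47 in basal and 3.17 in suprabasal cells.

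The Lce1 genes, which encode envelope proteins made late in differentiation, peaked on the same array of each layer. X682_11, a wild-type sample, was the highest of the 6 basal arrays for 14 of 14 Lce1 genes, and X682_05, a bitransgenic sample, the highest of the 6 suprabasal arrays for 14 of 14. Over all clusters these arrays were highest for 12.1% and 7.01%. Their gap to the next array of the layer was 0.06 to 1.51 (median 0.69) for X682_11 and 0.17 to 2.03 (median 0.81) for X682_05.

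Lce1b, the Lce1 gene of highest signal, had 7.60, 7.70 and 7.74 in bitransgenic basal and 7.68, 8.71 and 7.57 in wild-type basal cells. In suprabasal cells it had 8.06, 10.34 and 7.69 in bitransgenic and 8.31, 8.76 and 8.10 in wild type. Apart from X682_05 and X682_11, the arrays lay between 7.57 and 8.31. Lce1a1 had 6.43, 6.10 and 5.89 in bitransgenic basal and 6.54, 8.05 and 5.79 in wild-type basal cells. It had 6.86, 9.41 and 5.92 in bitransgenic suprabasal and 7.46, 7.51 and 6.65 in wild-type suprabasal cells. Lce1a2 and Lce1c, the other 2 of highest signal, peaked at 9.59 and 7.79 on X682_05 suprabasal and at 8.07 and 7.19 on X682_11 basal. X682_05 was the highest of all 12 arrays for 20 of the 47 genes, against 2.8% of all clusters.

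Kprp, a keratinocyte proline-rich protein gene of the complex, was named after its values were seen. It was at 9.75 on X682_05 suprabasal and 7.76 on X682_11 basal, and at 5.17 to 7.0 elsewhere. The erythroid markers were also high on X682_05 suprabasal: Hba-a1 was at 10.44, against 6.65 to 8.37 on the other 11 arrays. The log2 of the summed unlogged signals of the 4 markers was 11.05 there. It was 7.89 and 7.94 on the other bitransgenic suprabasal arrays and 8.04 to 9.16 in wild-type suprabasal cells. On X682_11 basal Hba-a1 was at 6.65, the lowest of the 6 basal arrays. The part of either in the Lce1 values was not tested.

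**Figure D5:**
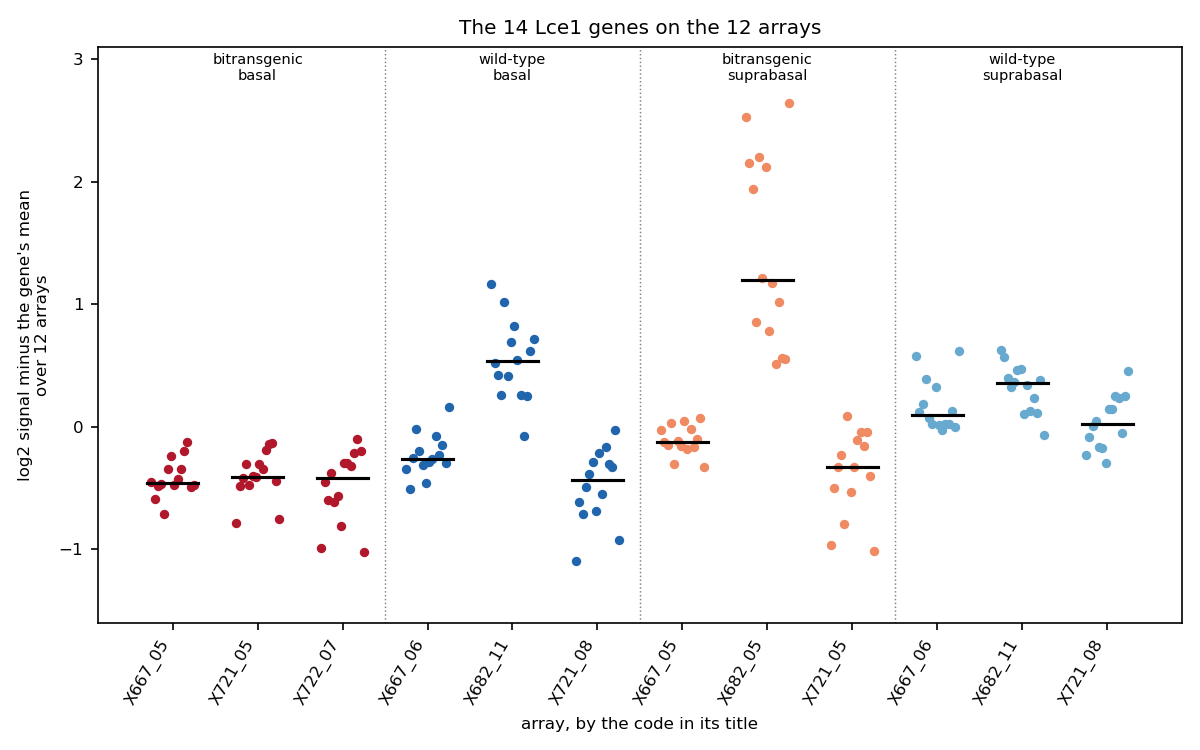
Difference of each of the 14 Lce1 genes from its own mean over the 12 arrays, in log2 units, by array and group; points are genes and the black bar is the median of the 14. X682_05 suprabasal and X682_11 basal stand above the other arrays of their layers for every gene.

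Between genotypes, none of the 47 genes was called in either layer. Only X721_05 among the bitransgenic codes shared the male pattern of Xist and Ddx3y with the wild-type arrays. The differences below, those of Sprr1b and the Sprr2 genes included, therefore mix genotype with sex. In basal cells 0 passed limma's moderated test, against 0% of all clusters. At unadjusted p under 0.05, 1 was higher (Sprr1b) against 13.1% of all clusters in either direction. Bitransgenic means were higher for 23 genes and lower for 24, with a median difference of -0.01 against 0.04 over all clusters, of which 38.1% were lower. In suprabasal cells 0 passed, against 0% of all clusters, and Sprr1b alone had unadjusted p under 0.05, against 5.22%. Of all clusters 61.6% had lower bitransgenic means. Among the 47 genes bitransgenic means were higher for 33 and lower for 14, with a median of 0.11 against -0.03. Without X682_05 suprabasal this turned to 15 higher and 32 lower, with a median of -0.15.

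Sprr1b was the only gene whose bitransgenic arrays lay above all wild-type arrays in basal and also in suprabasal cells. It averaged 8.10 ± 0.19 in bitransgenic basal and 7.34 ± 0.43 in wild-type basal cells, and 8.85 ± 0.07 in bitransgenic suprabasal and 8.13 ± 0.39 in wild-type suprabasal cells (SD, n = 3 each). The log2 differences were 0.76 (adjusted p = 0.242 in limma) and 0.72 (1.65-fold higher, adjusted p = 0.866). Its authors' deposited p-values were under 0.05 in both layers. Groups did not overlap for 2 genes higher (Sprr1b and Sprr4) and 4 lower (Lce1d, Lce1e, Lce1g and Lce1i) in basal cells, against 11.8% and 5.01% of all clusters. In suprabasal cells 2 were higher (Sprr1b and Sprr2j-ps) and 2 lower (Smcp and Tchhl1), against 2.52% and 9.79%. These counts depended on single arrays. In basal cells 17 were higher without X682_11 (19.1% of all clusters), 7 without X721_05 (15.3%), 6 without X667_05 (23.9%) and 4 without X721_08 (16.7%), and 11 were lower without X721_08 (7.48%). In suprabasal cells 11 were higher without X721_05 (10.7%) and 6 without X682_11 (6.18%), and 15 were lower without X682_05 (13.7%) and 5 without X667_06 (15.7%).

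By family, the Sprr2 genes had higher bitransgenic means in both layers, 10 of 11 in basal (median 0.45) and 11 of 11 in suprabasal cells (median 0.40), with groups that overlapped for every Sprr2 gene in basal cells and all but Sprr2j-ps in suprabasal cells. Sprr2a3 differed by 1.05 in basal (adjusted p = 0.629 in limma) and 1.17 in suprabasal cells (adjusted p = 0.869), with SDs of 1.03 to 1.46 within groups. With a term for the Xist and Ddx3y pattern in the limma fit these differences turned to -0.35 (adjusted p = 0.888) and -0.233 (adjusted p = 0.998). All wild-type arrays had low Xist, and X721_05 was the only bitransgenic code with low Xist. The term therefore rests on X721_05 and cannot separate the Xist pattern from that code. With a term for the intronic control level, added after seeing the data, the Sprr2a3 differences were 0.337 and 0.622 (adjusted p = 0.759 and 0.881). With an array left out, the basal median of the Sprr2 genes ran from 0.287 without X667_05 to 0.687 without X721_05. The suprabasal median ran from 0.158 without X667_05 to 0.698 without X721_05. Groups did not overlap for 9 of 11 Sprr2 genes without X682_11 basal (19.1% of all clusters higher) and for 5 without X721_05 basal (15.3%), all higher in bitransgenic cells. In suprabasal cells they did not overlap for 8 without X721_05 (10.7%) and for 5 without X682_11 (6.18%), again higher in bitransgenic cells. X682_11 was the wild-type code with high and X721_05 the bitransgenic code with low Sprr2a3, so these counts depend on the choice of array. Lce1 genes had lower bitransgenic means in basal cells for 13 of 14 (median -0.325), and 9 of 14 were lower without X682_11 (median -0.07), while the median was -0.526 without X721_08. In suprabasal cells 12 of 14 were higher (median 0.12), with a median of 0.419 without X667_05 and 0.393 without X721_05. Without X682_05, 0 of 14 were higher (median -0.37), so the direction of the Lce1 genes in suprabasal cells rested on that array. The fused S100 genes were lower for 5 of 7 in each layer (medians -0.18 and -0.12).

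The difference between layers did not differ detectably between genotypes. In the interaction 0 of 47 genes passed, against 0% of all clusters, and 0 had unadjusted p under 0.05, against 10.2%. The genotype difference in basal minus that in suprabasal cells was negative for 14 of 14 Lce1 genes, with a median of -0.58. Without X682_05 suprabasal 9 were positive and the median was 0.075, and without X682_11 basal 12 were negative with a median of -0.20. For Sprr1a, Sprr4 and Ivl the interaction was 0.43 ± 0.34, 0.56 ± 0.29 and 0.52 ± 0.92 (SE; adjusted p = 0.676, 0.531 and 0.877 in limma).

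The remaining genes stayed at or below the background mark. The Lce3 genes, which are known for induction after barrier damage, lay between 3.66 and 7.95. Lce3c, the gene of highest signal among them, overlapped between layers in bitransgenic cells, with 7.33, 7.53 and 7.73 in basal and 7.59, 7.93 and 7.61 in suprabasal cells. In wild-type cells it had 7.24, 7.29 and 7.39 in basal, against 7.71, 7.89 and 7.95 in suprabasal cells (-0.54, adjusted p = 0.0538 in limma). Lce3a was highest on the same arrays as the Lce1 genes, with 7.88 on X682_05 suprabasal and 6.17 on X682_11 basal, and 4.85 to 6.02 on the other arrays. Smcp, a gene of sperm mitochondria that lies among the envelope genes, stayed between 4.04 and 4.71. For the 5 sperm markers Prm1, Prm2, Tnp1, Tnp2 and Odf1 the log2 of the summed unlogged signals was 8.02 to 8.36 over all arrays. Repetin, cornulin, trichohyalin and its relative (Rptn, Crnn, Tchh and Tchhl1) lay between 3.78 and 5.78. Sprr3, a gene of internal stratified epithelia, lay between 3.52 and 3.78, and Lce6a between 3.57 and 4.08. Crct1 lay between 5.61 and 6.98, with its highest value on X682_05 suprabasal.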

How the data were processed

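Sorted keratinocytes gave 12 arrays (Affymetrix MTA-1_0), and the sample titles place 3 in each of 4 groups. Deposited values are log2 signals of transcript clusters (mm10, NetAffx build 34, per the file headers). Per the submitters' processing notes, Affymetrix Expression Console and RMA made them; versions are not given in the sources used here. RMA makes the distributions of arrays alike, so a shift shared by most genes can be hidden. Per the file headers, signed fold changes, p-values and q-values of each comparison stand in the authors' deposited table, of which only the count of p-values under 0.05 was used.

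Of 72688 probe sets, 6732 controls (9.26%) were left out, and 65956 clusters were fitted without a filter in 1 limma model of 4 group means (empirical Bayes). P-values were adjusted over all of them after Benjamini and Hochberg. The series design names an unpaired Student test, which was run as an alternative. The background mark of an array is the 95th percentile of its intronic controls. A gene was counted as above background in a group where at least 1 of 3 arrays exceeded the mark, and a fold against a group without such an array is a bound.

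The genes, lists and tests were chosen with earlier results of these data known. Per-array values are given for genes above background on all 3 arrays of a group, called genes, Lor, Ivl and the main fused S100 genes, up to 4 of highest mean signal per family or list, and others where the text says they were chosen after their values were seen.

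Codes that occur in both layers paired the samples in the data, not in the labels: deviations from group means correlated at 0.241 and 0.136 in bitransgenic and 0.269, 0.533 and 0.37 in wild-type codes, and the random block had a correlation of 0.151. Upstream windows came from RefSeq tables of GRCm38.p6. Identity is the share of 250 bases matched in a global alignment with free gaps at the ends, so a pair can be aligned over a short overlap. The fit was tested on simulated data. Python 3.11.15, R 4.3.3, limma 3.58.1, the R package data.table (1.17.8), numpy 2.4.6, pandas 2.3.3, biopython 1.88 and matplotlib 3.10.9 were used.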

Additional observations from a re-analysis of the deposited data

How the results depend on the processing

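Between wild-type layers, the 2 called genes became 4 with array weights, 5 with the code as a random replicate block, 4 with the code as a fixed block and 5 with a term for the intronic control level, an alternative added after seeing the data. They became 0 when only the 2 groups compared were fitted and 0 under the Student test of the design, where adjusted p was 0.0746 and 0.188 for Sprr1a and 0.0723 and 0.183 for Sprr4. Leaving out each array in turn gave 0 to 3 called genes. Called genes stayed at 0 in the other comparisons and the interaction under every alternative, replicate blocks included. The median difference of the 47 genes in suprabasal cells between genotypes was 0.434 with array weights, against 0.11; those between layers ran from -0.453 to -0.05 in wild-type cells and, with an array left out, from -0.687 to -0.142 in bitransgenic cells. The 17 genes above background became 3 against the 99th percentile of intronic controls, 37 against their median, 5 where all 3 arrays of a group had to exceed the mark and 12 to 17 with an array left out. Of 1089 values of named genes under the alternatives, 1023 kept direction and call, 18 lost a call, 6 gained one and 42 changed sign, none of which was called on either side. A term for the Xist and Ddx3y pattern turned the Sprr2a3 genotype differences to -0.35 in basal and -0.233 in suprabasal cells (1.05 and 1.17 without it), and those in suprabasal cells of Hrnr to -0.057 and Sprr1a to 0.015. That term rests on X721_05, the only bitransgenic code with low Xist. Array weights turned the Sprr2a3 layer differences to -0.482 in bitransgenic and -0.235 in wild-type cells and the suprabasal genotype difference of Flg2 to 0.493. The intronic term gave -0.087 for Sprr2a3 between bitransgenic layers, centring -0.067 for the Sprr1b interaction and cyclic loess -0.013 for Flg between genotypes in suprabasal cells. Leaving out an array gave ranges across 0 for 13 differences: between genotypes in suprabasal cells for Ivl (-0.202 to 0.733), Lor (-0.29 to 0.015), Flg (-0.175 to 0.345), Flg2 (-0.733 to 0.157) and Hrnr (-0.468 to 0.852) and in basal cells for Hrnr (-0.808 to 0.252). They also crossed 0 between layers for Sprr2a3 (-0.727 to 0.698 in bitransgenic and -0.383 to 1.025 in wild-type cells) and Hrnr (-0.968 to 0.092 in wild type), and in the interaction for Sprr2a3 (-0.945 to 0.502), Sprr1b (-0.12 to 0.28), Ivl (-0.013 to 1.208) and Hrnr (-1.282 to 0.038). The cause was not tested. Averaging all clusters of a gene changed nothing because each has 1 cluster, and the series matrix held the same values (largest difference 0). With 30 of 47 genes never above background, signal limits what can be seen.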

Other observations

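Among the genes listed beside the envelope genes, Tgm1, Krt15, Fosl2 and Klf4 are given as values only, since they were chosen after their values were seen. Tgm1, the transglutaminase that anchors the envelope, had a log2 signal of 10.05, 9.27 and 9.68 on bitransgenic basal X667_05, X721_05 and X722_07, and 8.72, 9.52 and 8.49 on wild-type basal X667_06, X682_11 and X721_08. In suprabasal cells it was at 10.58, 10.42 and 9.92 on bitransgenic X667_05, X682_05 and X721_05, and at 8.90, 10.15 and 9.75 on wild-type X667_06, X682_11 and X721_08. Krt15, a keratin of basal cells, was at 11.65, 12.17 and 12.06 in bitransgenic basal and 13.06, 11.71 and 13.15 in wild-type basal cells, and at 11.22, 11.19 and 10.93 in bitransgenic suprabasal and 13.03, 11.52 and 12.76 in wild-type suprabasal cells. In each layer X682_11 was the lowest wild-type array for Krt15 and the highest for Tgm1.

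Fosl2, an AP-1 subunit, was at 9.49, 9.71 and 9.73 in bitransgenic basal and 10.54, 9.66 and 10.52 in wild-type basal cells, and at 9.42, 9.36 and 9.25 in bitransgenic suprabasal and 10.30, 9.40 and 10.12 in wild-type suprabasal cells. Klf4, a regulator of barrier formation, was at 10.26, 10.59 and 10.33 in bitransgenic basal and 11.10, 10.40 and 10.93 in wild-type basal cells, and at 10.40, 10.53 and 10.70 in bitransgenic suprabasal and 11.04, 10.58 and 10.98 in wild-type suprabasal cells. For both genes X682_11 lay lowest of the 3 wild-type arrays in each layer, whereas for Sprr2a3 and Sprr2b it lay highest. None of these genes was called between genotypes in either layer (smallest adjusted p = 0.364 for Fosl2 in basal cells, limma).

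The authors' deposited table gives p under 0.05 for 6 of the 47 genes between bitransgenic layers (Lor, Sprr1a, Sprr1b, Sprr4, Ivl and Flg) and for 6 between wild-type layers (Sprr1a, Sprr4, Smcp, Lce1j, Lce3c and Lce3d), all lower in basal cells. Between genotypes, the authors' deposited table has 2 such genes in basal cells, Sprr1b and Sprr4, both higher in bitransgenic cells. In suprabasal cells it has 3, of which Sprr1b was higher and Smcp and Tchhl1 were lower in bitransgenic cells.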
